A study of Rattus norvegicus with 17 samples.

Results

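The genes described here encode ionotropic and metabotropic glutamate receptors, the auxiliary subunits that travel with them and the scaffolds that hold them at the synapse. They were chosen as a list of 43 gene symbols by their role, with earlier results of these data known, out of 34322 genes in the count table. All 43 were found, and all 43 passed the filter on low counts in each comparison. The list holds 4 AMPA, 7 NMDA and 5 kainate receptor subunits, 1 delta receptor subunit, 6 metabotropic receptors, 10 auxiliary subunits and 10 postsynaptic scaffolds.

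RNA was sequenced from the hippocampus of 17 Long-Evans rats aged 36 to 38 days, to ask how ethanol before birth changes expression in adolescence. Ethanol-exposed rats (ET, 5 libraries) came from a dam given a liquid diet with 6.7% ethanol, which supplied 36% of its calories, from gestational day 0 to 20. Pair-fed controls (PF, 6 libraries) came from a dam given matched amounts of a liquid diet without ethanol, and ad libitum controls (AD, 6 libraries) from a dam on chow. The ET group held 2 females and 3 males, and the PF and AD groups 3 of each by their labels. Each diet was represented by a single litter, so litter and diet cannot be told apart, and p-values measure the spread between littermates. The left hippocampus was used except in 4 libraries. Total counts ranged from 10853947 to 17498392 with a median of 13538433. The study left out 1 library of each diet, and the tests below used the remaining 14 (4 ET, 5 PF and 5 AD). Those 3 libraries carried the highest levels of Ttr, a choroid plexus transcript, at normalized counts of 87542 in ET, 100070 in PF and 112029 in AD. Counts of Kdm5d, a Y-linked gene, went against the labelled sex in 2 AD libraries, so the sexes were compared in ET and PF only.

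Glutamate is the main excitatory transmitter of the hippocampus. AMPA receptors carry most of the fast current, NMDA receptors admit calcium and start long-term plasticity, kainate receptors act at mossy fibre synapses, and metabotropic receptors signal through G proteins. The auxiliary subunits (TARPs, cornichons and Neto proteins) set the trafficking and gating of AMPA and kainate receptors. The scaffolds of the Dlg, Homer and Shank families tie receptors to the cytoskeleton and to each other.

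In edgeR, 2 of the 43 members passed an adjusted p of 0.05 between PF and AD (4.65%), near the share of all genes tested (5.17%). Both were lower in PF: Cacng5, which encodes a type II TARP, and Grin2c, which encodes an NMDA receptor subunit. The call of Grin2c was lost in 14 of 19 alternative fits. No member passed in edgeR between ET and PF or between ET and AD. DESeq2 also called Cacng7 between PF and AD (adjusted p = 0.048) and Cacng5 between ET and PF (0.019). The 250 bases before the annotated start of Cacng5 and Grin2c are shown because these are the members that passed in edgeR. Those of Grik3 and Cacng8, which followed the cortical marker level in opposite directions (described further on), are shown for contrast. The sequences are from RefSeq on GRCr8, read 5′ to 3′ on the strand of the gene, and capitals mark a GC box (GGGCGG) or an E-box (CAGCTG) on either strand.
Cacng5 (chr10:93336668-93336917, minus strand): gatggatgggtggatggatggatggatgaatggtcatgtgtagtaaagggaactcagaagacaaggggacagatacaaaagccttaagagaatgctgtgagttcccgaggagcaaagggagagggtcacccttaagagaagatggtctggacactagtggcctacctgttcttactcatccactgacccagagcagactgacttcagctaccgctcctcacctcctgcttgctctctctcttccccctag
Grin2c (chr10:101005139-101005388, minus strand): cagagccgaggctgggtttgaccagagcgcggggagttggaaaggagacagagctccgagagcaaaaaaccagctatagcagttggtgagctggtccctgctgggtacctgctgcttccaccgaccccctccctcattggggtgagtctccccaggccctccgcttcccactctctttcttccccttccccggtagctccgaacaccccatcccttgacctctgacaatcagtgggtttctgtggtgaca
Grik3 (chr5:143052192-143052441, plus strand): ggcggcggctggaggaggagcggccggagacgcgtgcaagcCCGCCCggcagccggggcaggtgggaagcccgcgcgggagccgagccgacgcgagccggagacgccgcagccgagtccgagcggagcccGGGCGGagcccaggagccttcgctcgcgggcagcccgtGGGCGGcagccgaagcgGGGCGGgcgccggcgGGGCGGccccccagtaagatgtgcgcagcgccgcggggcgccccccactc
Cacng8 (chr1:74691004-74691253, minus strand): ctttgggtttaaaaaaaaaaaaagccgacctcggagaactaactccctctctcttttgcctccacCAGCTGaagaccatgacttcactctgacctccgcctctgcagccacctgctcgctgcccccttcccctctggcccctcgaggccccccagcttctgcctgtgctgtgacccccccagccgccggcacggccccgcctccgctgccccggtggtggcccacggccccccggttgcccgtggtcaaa

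Neither Cacng5 nor Grin2c held any of the motifs searched on both strands. These were the TATA box (TATAAA), the GC box, the cAMP response element (TGACGTCA) and the E-box. A promoter entry was found for 27 of the 43 members. The GC box was found in 7 of these 27 (25.9%) and in 30.5% of all 33469 promoters of this length, and the E-box in 4 (14.8%) and in 11.97% of all. GC content was 51.2% for Cacng5, 59.6% for Grin2c, 81.6% for Grik3 and 64.8% for Cacng8. The members' median was 59.6%, against 51.2% over all promoters.

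The following values are normalized counts, that is, counts scaled by TMM to a common library size, and they are compared only within a gene. Cacng5 was at 221, 295, 244 and 210 in the ET libraries, at 149, 180, 156, 179 and 206 in the PF libraries and at 260, 292, 224, 221 and 259 in the AD libraries. The PF libraries lay below every library of both other groups, with means of 243 ± 37.8 (SD, n = 4) in ET, 174 ± 22.6 (n = 5) in PF and 251 ± 29.6 (n = 5) in AD. The libraries left out were at 288 in ET, 210 in PF and 198 in AD. With them, the PF and AD groups overlapped.

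By the quasi-likelihood test of edgeR, Cacng5 was lower in PF than in AD by a log2 fold change of -0.53 (SE 0.10, 95% interval -0.76 to -0.31, adjusted p = 0.0075), a fold of 0.692. The adjusted p lay between 0.00023 and 0.027 in all 19 alternative fits. Between ET and PF the log2 fold change of Cacng5 was 0.48 (SE 0.12, interval 0.21 to 0.75), with an adjusted p of 0.057 in the edgeR test that missed the threshold of 0.05. It passed in 5 of 18 alternative fits, among them DESeq2 (0.019) and all libraries (0.030), and the adjusted p ranged from 0.019 to 0.14. Both comparisons rest on the same PF libraries. Between ET and AD the difference was -0.05 (interval -0.31 to 0.20).

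The level of thalamus and habenula markers moved with Cacng5 over the 17 libraries, though not within each diet. The part of marker genes in the difference of Cacng5 was not tested. Of 10 genes listed for thalamus and habenula, 9 rose above 3 normalized counts in their highest library. The summed level of the list was 1857 to 3214 in ET, 1386 to 2843 in PF and 1693 to 2143 in AD. The habenula marker Pou4f1 was near the floor, at 0 to 2.68 over the 17 libraries. Tnnt1 was at 20.6 to 41.8 in ET, 4.14 to 12.9 in PF and 24.8 to 48.1 in AD. In each comparison with PF it was the only 1 of the 7 listed genes tested that passed. Over the 17 libraries Cacng5 followed the mean log2 level of that list (r = 0.63, rho = 0.69, adjusted permutation p = 0.048 and 0.039). Without the 2 libraries farthest from the median r was 0.43, and within diets it was 0.59 in PF and -0.23 in AD, each over 6 libraries. ET, with 5 libraries, was too small for a value. Of 8 genes tested for oligodendrocytes and their precursors, only Mag and Olig1 passed between PF and AD, and both were lower in PF. Of all genes tested, 5.17% passed and 0.846% passed and were lower in PF. In the libraries tested, Mag was at 4317 to 5472 normalized counts in PF and 5624 to 7801 in AD, so the groups did not overlap, and Olig1 at 1465 to 2060 and 2022 to 2332, where they did. In bulk tissue, fewer cells of a type and less RNA per cell cannot be told apart.

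Grin2c was at 1006, 1112, 1109 and 1162 in ET, at 1092, 1002, 1046, 1046 and 1099 in PF and at 1261, 1135, 1161, 1175 and 1251 in AD. Each AD library lay above each PF library. The log2 fold change from AD to PF was -0.18 (SE 0.046, interval -0.28 to -0.08, edgeR adjusted p = 0.044), a fold of 0.884. The AD library left out was at 998, below every PF library tested, and with all libraries the adjusted p was 0.12. The call was lost in 14 of 19 alternative fits, with log2 fold changes between -0.22 and -0.16.

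**Figure D1:**
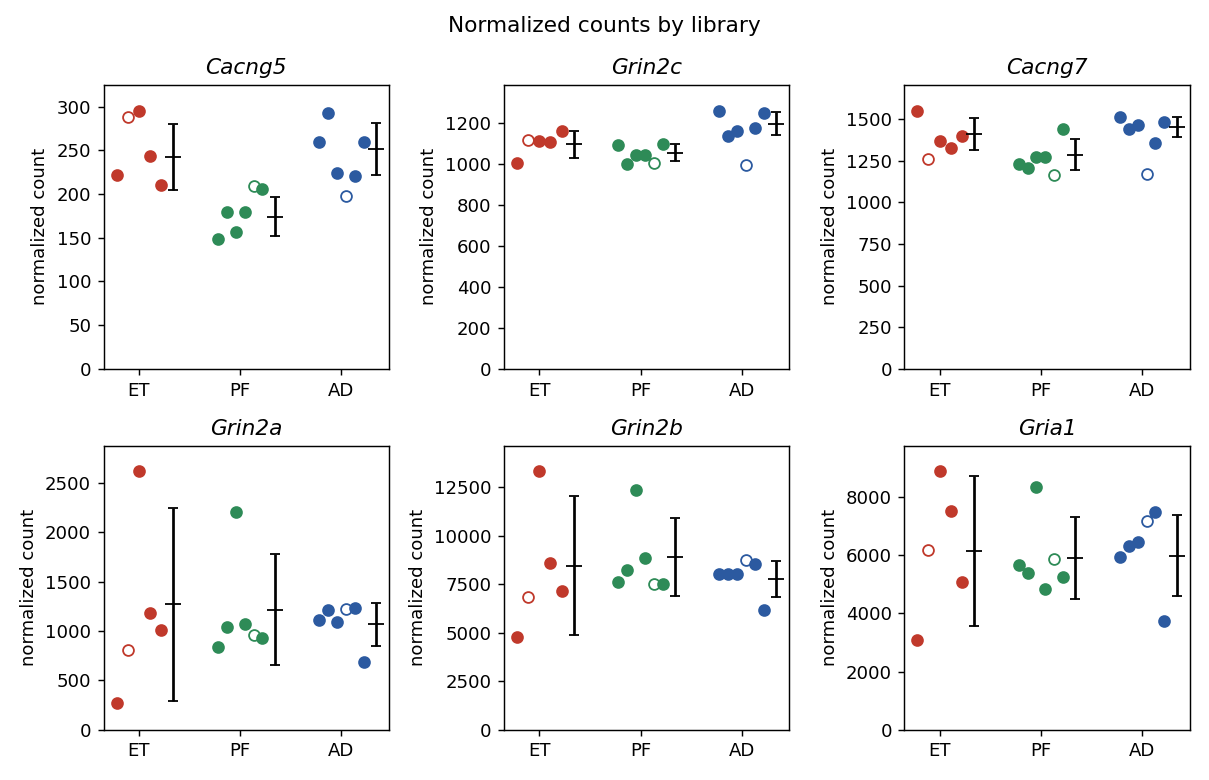
Normalized counts of 6 members in each library. Filled points are the 14 libraries tested, open points the 3 left out, and bars the mean ± SD of the filled points. For Cacng5 the filled PF points lie below the filled ET and AD points, although the open AD point lies among those of PF, whereas for Grin2a, Grin2b and Gria1 the spread within a diet exceeds any difference between diets.

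Counted over the list, 2 of 43 members passed an adjusted p of 0.05 between PF and AD (4.65%), beside 5.17% of 15960 genes tested, so their share was near the background. Both were lower in PF. Of all genes tested, 0.846% passed and were lower in PF. By DESeq2 it was 3 members, beside 5.89% of all genes. At an unadjusted p below 0.05 it was 7 members (16.3%) beside 16.4% of all genes. Between ET and PF, 0 of 43 passed in edgeR beside 4.13% of 16068 genes. There were 2 members at an unadjusted p below 0.05, beside 11.9% of all genes, and 1 by DESeq2 with adjustment, beside 4.63% of all genes by that tool. Between ET and AD, 0 of 43 passed in edgeR, beside 0.0127% of 15749 genes, and 0 in DESeq2, beside 0.0743%, and 0 had an unadjusted p below 0.05, beside 2.74% of all. At the threshold of the study (an adjusted p under 0.01 together with a log2 fold change over 1.5 in size) no member passed in edgeR or DESeq2. The shares of all genes for ET with PF, ET with AD and PF with AD were 2.17%, 0.0127% and 2.05% in edgeR and 2.19%, 0.0135% and 2.07% in DESeq2. The groups did not overlap for Cacng5 between ET and PF (6.76% of genes), for no member between ET and AD (1.21%), and for Cacng5 and Grin2c between PF and AD (6.62%).

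The median log2 fold change of the members was 0.02 between ET and PF, -0.04 between ET and AD and -0.05 between PF and AD, beside 0.01, 0.00 and 0.00 over all genes. The 95% interval lay within 1 log2 unit of 0 for 41 of 43 members in each comparison, and within 0.5 for 30, 31 and 34. The exceptions at 1 unit were Grin2a and Grm8 in both comparisons with ET, and Grm4 and Grm8 between PF and AD.

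**Figure D2:**
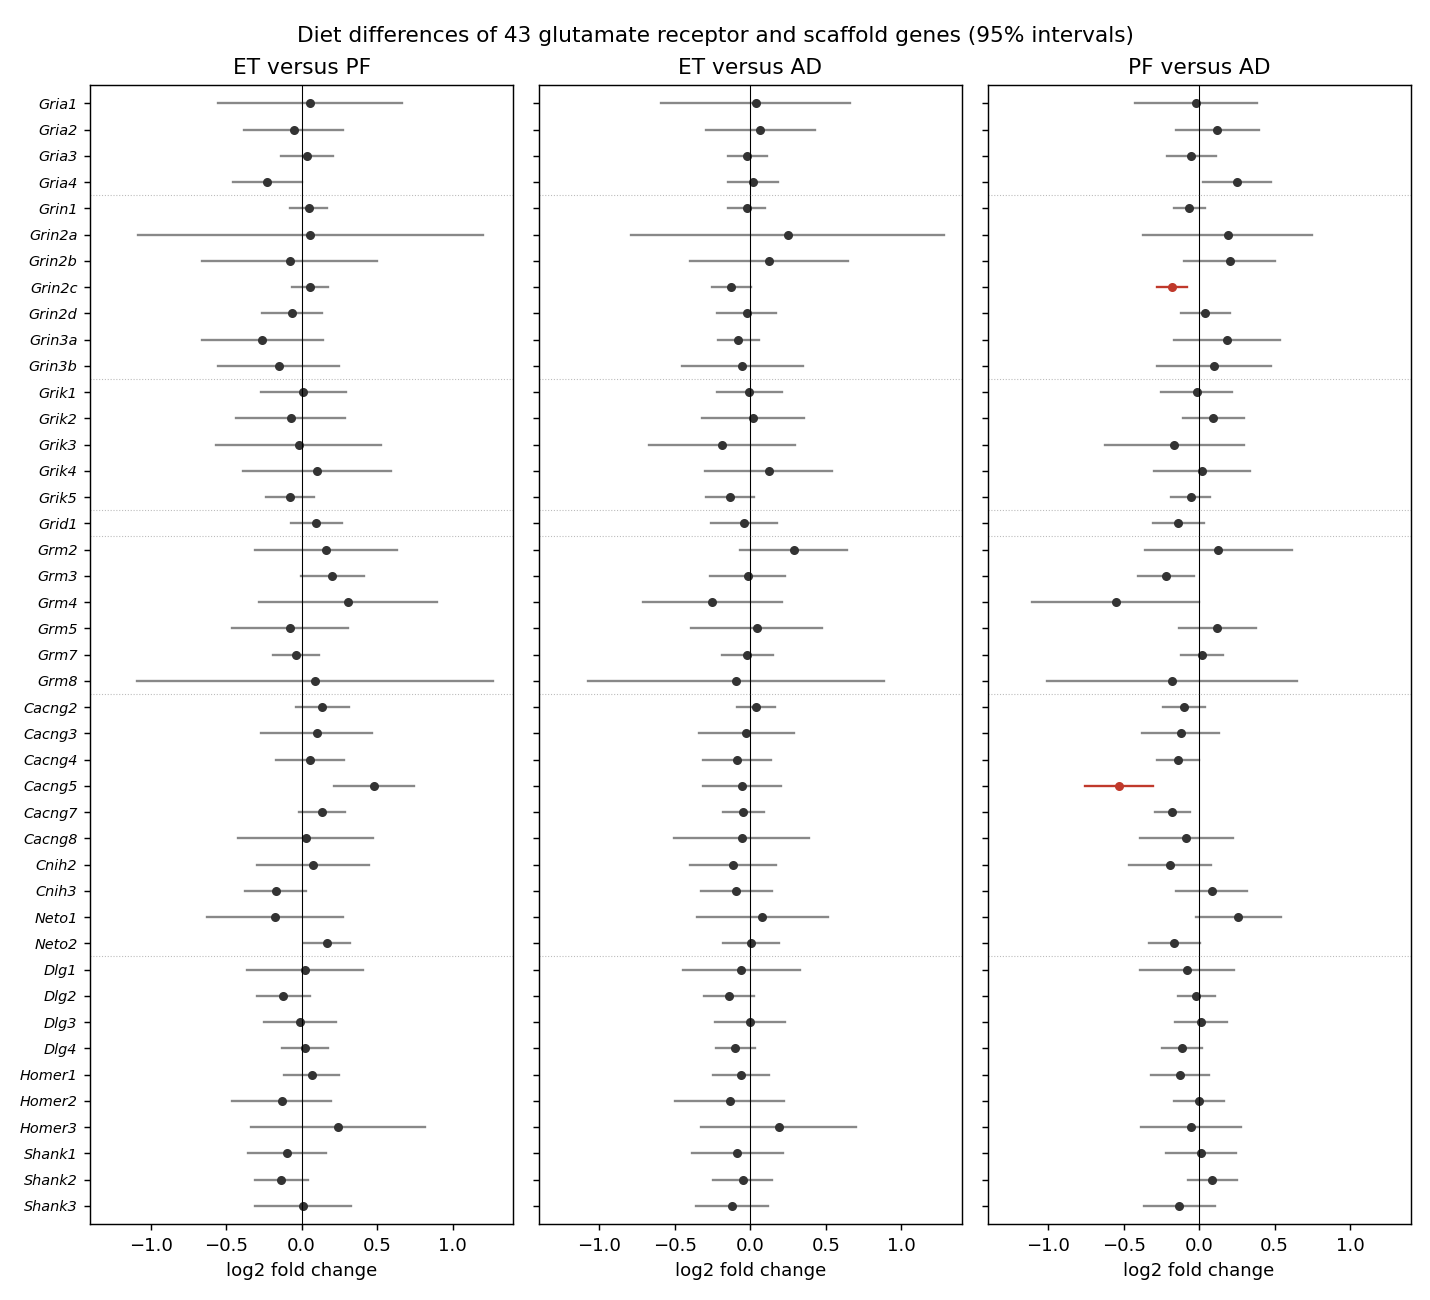
Log2 fold change of each member (points) with its 95% interval (lines) in the comparisons of ET with PF, ET with AD and PF with AD. Red marks an adjusted p below 0.05, which only Cacng5 and Grin2c between PF and AD reached. Dotted lines part the AMPA, NMDA, kainate, delta, metabotropic, auxiliary and scaffold genes.

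Among the AMPA receptor subunits, 0 of 4 passed in any comparison. Gria2, whose edited form makes the channel impermeable to calcium, was at 8424 to 13898 in the ET libraries tested, 10881 to 14727 in PF and 7686 to 12283 in AD. These ranges overlapped throughout, and the log2 fold change between ET and PF was -0.05 (SE 0.15, interval -0.38 to 0.28). Gria4 had means of 1257 ± 48.5 (SD, n = 4) in ET, 1473 ± 230 (n = 5) in PF and 1239 ± 128 (n = 5) in AD. Its difference was -0.23 between ET and PF (edgeR adjusted p = 0.42) and 0.25 between PF and AD (0.24).

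Of the 7 NMDA receptor subunits only Grin2c passed, and only between PF and AD. Grin1, the obligatory subunit, was among the steadiest members, from 5354 to 6886 over the 17 libraries. Grin2b, the subunit that predominates early in development, was at 4759 to 13320 in ET, 7507 to 12380 in PF and 6188 to 8565 in AD in the libraries tested, with a log2 fold change of -0.08 between ET and PF (SE 0.26). Grin2a, whose product joins the receptor as synapses mature, was at 267, 2615, 1181 and 1011 in ET, at 834, 1040, 2208, 1066 and 925 in PF and at 1109, 1212, 1086, 1237 and 689 in AD. The highest and the lowest library of all were both ET females with left hippocampi, 9.80-fold apart, so its difference between ET and PF was 0.06 with an interval of -1.08 to 1.20.

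None of the 5 kainate receptor subunits and not Grid1, the delta receptor subunit, passed. Grik5, which forms receptors only with other subunits, was at 1817 to 2197 in ET, 1972 to 2278 in PF and 2030 to 2405 in AD, and its log2 fold change was -0.08 between ET and PF and -0.14 between ET and AD (interval -0.30 to 0.02). Grid1 had means of 953 ± 102 (SD, n = 4), 891 ± 50.8 (n = 5) and 979 ± 117 (n = 5) in ET, PF and AD.

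None of the 6 metabotropic receptors passed. Grm5, the group I receptor of this list, was at 2333 to 4809 in ET, 3479 to 4444 in PF and 2474 to 3894 in AD. Grm8, a presynaptic group III receptor, spanned 39.4 to 275 over the 17 libraries, the widest relative spread of the list (SD of 0.79 on the log2 scale). Its difference between ET and PF, 0.09, had an interval of -1.09 to 1.27. Grm4, another group III receptor, was at 180 to 308 in ET, 117 to 293 in PF and 180 to 377 in AD in the libraries tested, so the groups overlapped. Its log2 difference between PF and AD, -0.55, was the largest of the list in size but did not pass (SE 0.25, adjusted p = 0.30 in edgeR), and between ET and PF it was 0.31 (SE 0.27, adjusted p = 0.81 in edgeR).

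Among the 10 auxiliary subunits, Cacng5 was the only one called in edgeR. Cacng7, the other type II TARP, was at 1551, 1367, 1326 and 1399 in ET, at 1228, 1205, 1275, 1275 and 1443 in PF and at 1514, 1443, 1465, 1358 and 1485 in AD. PF and AD overlapped through 1 PF library, PF replicate 6. The log2 fold change between PF and AD was -0.18 (SE 0.054, edgeR adjusted p = 0.097). It was -0.22 (0.012) without that library and passed in DESeq2 (0.048). These were the only 2 of 19 alternative fits in which Cacng7 passed, and the adjusted p reached 0.23. The AD library left out was at 1169, below every PF library tested. Cnih2, a cornichon, had means of 4345 ± 901 (SD, n = 4), 4115 ± 805 (n = 5) and 4703 ± 479 (n = 5) in ET, PF and AD. Neto2, a kainate receptor auxiliary subunit, differed by 0.17 between ET and PF (edgeR adjusted p = 0.36).

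None of the 10 scaffolds passed. Dlg4, the main scaffold of the excitatory synapse, was at 11708 to 12767 in ET, 11079 to 13488 in PF and 12370 to 13897 in AD, with a log2 fold change of 0.02 between ET and PF (interval -0.13 to 0.17). Dlg2 differed by -0.12 between ET and PF and by -0.14 between ET and AD (interval -0.30 to 0.02). The sum over all scaffolds lay between 37139 and 48139 in the 17 libraries.

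The sexes were compared in ET and PF with diet in the fit. No member passed in edgeR or in DESeq2 beside 0.0436% of 16068 genes, and 0 had an unadjusted p below 0.05, beside 1.87% of all. For the interaction of sex with diet no member and no gene passed in edgeR, with Grin3b (unadjusted p = 0.0094) and Cacng2 (0.020) the members below 0.05 before adjustment, against 1.36% of all genes.

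The balance of paired subunits was compared within each library, which removes the effect of library size. For 5 ratios in the 3 comparisons of diets, exact two-sided permutation tests gave no p below 0.05, and 0.67 was the smallest after adjustment over the 15 tests. The smallest p this design allows is 0.016 for 4 against 5 libraries and 0.0079 for 5 against 5. The ratio of Grin2b to Grin2a counts ranged from 5.09 to 17.8 in ET, 5.61 to 9.13 in PF and 6.63 to 8.98 in AD. The smallest p was that of Grm5 to Grm3 between PF and AD, with a log2 difference of 0.35 (exact permutation p = 0.087).

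**Figure D3:**
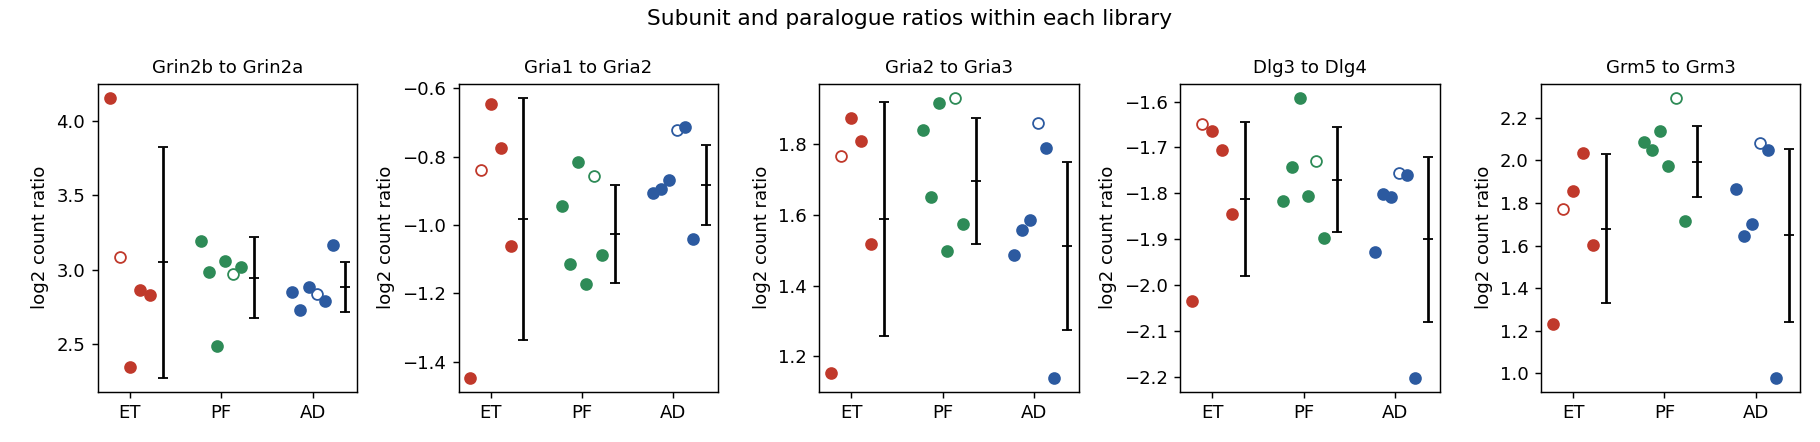
Log2 ratio of the counts of 2 genes within each library, by diet. Filled points are the 14 libraries tested, open points the 3 left out, and bars the mean ± SD of the filled points. The diets overlap in all 5 ratios, and 1 ET library stands apart for Grin2b to Grin2a at a ratio of 17.8.

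Many members varied between rats of the same diet. The median of their SD within diets, pooled over the 17 libraries, was 0.21 on the log2 scale, beside 0.13 for the 11262 genes with a mean normalized count of at least 100. Part of this variation moved together with marker genes. The level of 7 detected cortical marker genes (Tbr1, Rorb, Fezf2, Cux2, Lamp5, Rspo1 and Foxp2, with Ctgf not found in the table), several of which hippocampal cells also make, ranged from 7.41 to 8.54 as a mean on the log2 scale. Their summed normalized count was 1913 to 5383 in ET, 1891 to 3580 in PF and 2117 to 4526 in AD, and no gene of the list passed the test between diets.

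Of 473 correlations of members with 11 marker lists, 10 with the cortical list passed adjustment for both r and rho. Of these, 5 were positive: Dlg1 (r = 0.96, rho = 0.90), Cacng3 (0.89, 0.82), Grik3 (0.88, 0.85), Grm8 (0.87, 0.81) and Grm4 (0.76, 0.75). The other 5 were negative: Neto1 (r = -0.87, rho = -0.82), Grik4 (-0.86, -0.78), Gria1 (-0.83, -0.78), Homer3 (-0.81, -0.77) and Cacng8 (-0.78, -0.71). The adjusted permutation p of r was at most 0.0082 and that of rho at most 0.031. All 10 kept their sign without the 2 libraries farthest from the median (ET replicate 1 and AD replicate 6), with r of 0.94 for Dlg1 and -0.66 for Cacng8. Within diets r of Dlg1 was 0.94 in PF and 0.95 in AD, and that of Neto1 was -0.91 and -0.96, with no value for ET, which had 5 libraries. In the 13 left hippocampi r was 0.97 for Dlg1 and -0.94 for Neto1. These genes and the marker genes come from the same libraries, and the part of tissue composition was not tested.

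**Figure D4:**
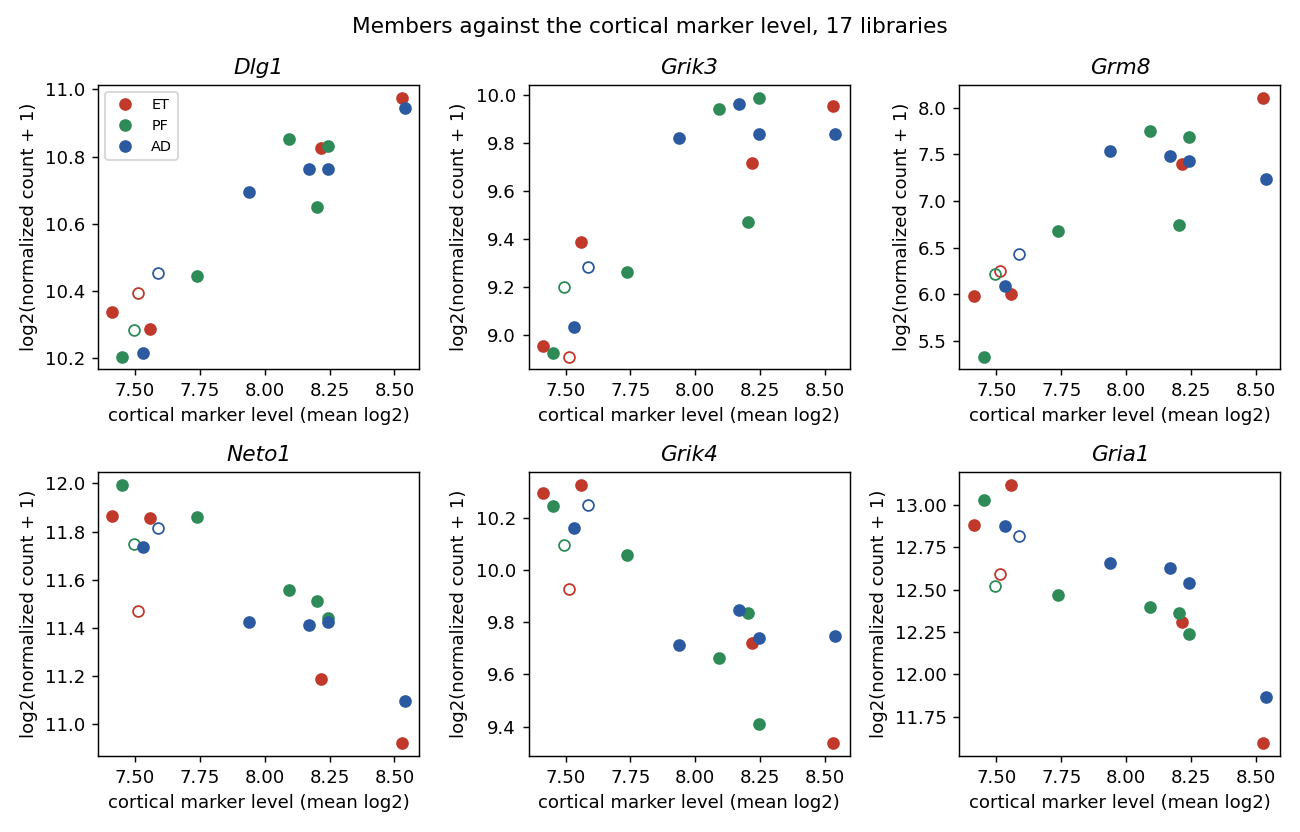
Log2(normalized count + 1) of 6 members against the mean log2 level of the cortical markers, 1 point per library, coloured by diet, with the 3 libraries left out drawn open. Dlg1, Grik3 and Grm8 rise and Neto1, Grik4 and Gria1 fall along the same axis, with the diets intermixed.

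With markers of hippocampal excitatory neurons, 9 members correlated positively and 2 negatively under the same rule, among them Cacng8 (r = 0.95), Dlg3 (0.95) and Gria1 (0.93). ET replicate 1 stood apart on that list, by 40.8% of its range. Without it and AD replicate 6, r was 0.90, 0.97 and 0.85. Markers of dentate granule cells gave 9 positive and 1 negative, those of CA pyramidal cells 2 positive (Gria3 and Homer2), and those of oligodendrocytes 3 negative (Grin2d, Grin3a and Cnih3). The excitatory neuron list shares Prox1 with the dentate list and Wfs1, Fibcd1 and Neurod6 with the CA list, so their correlations are not separate. No member passed with markers of inhibitory neurons, astrocytes, microglia or endothelium. With the choroid plexus list, whose levels set 3 libraries apart, no pooled correlation is given.

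**Figure D5:**
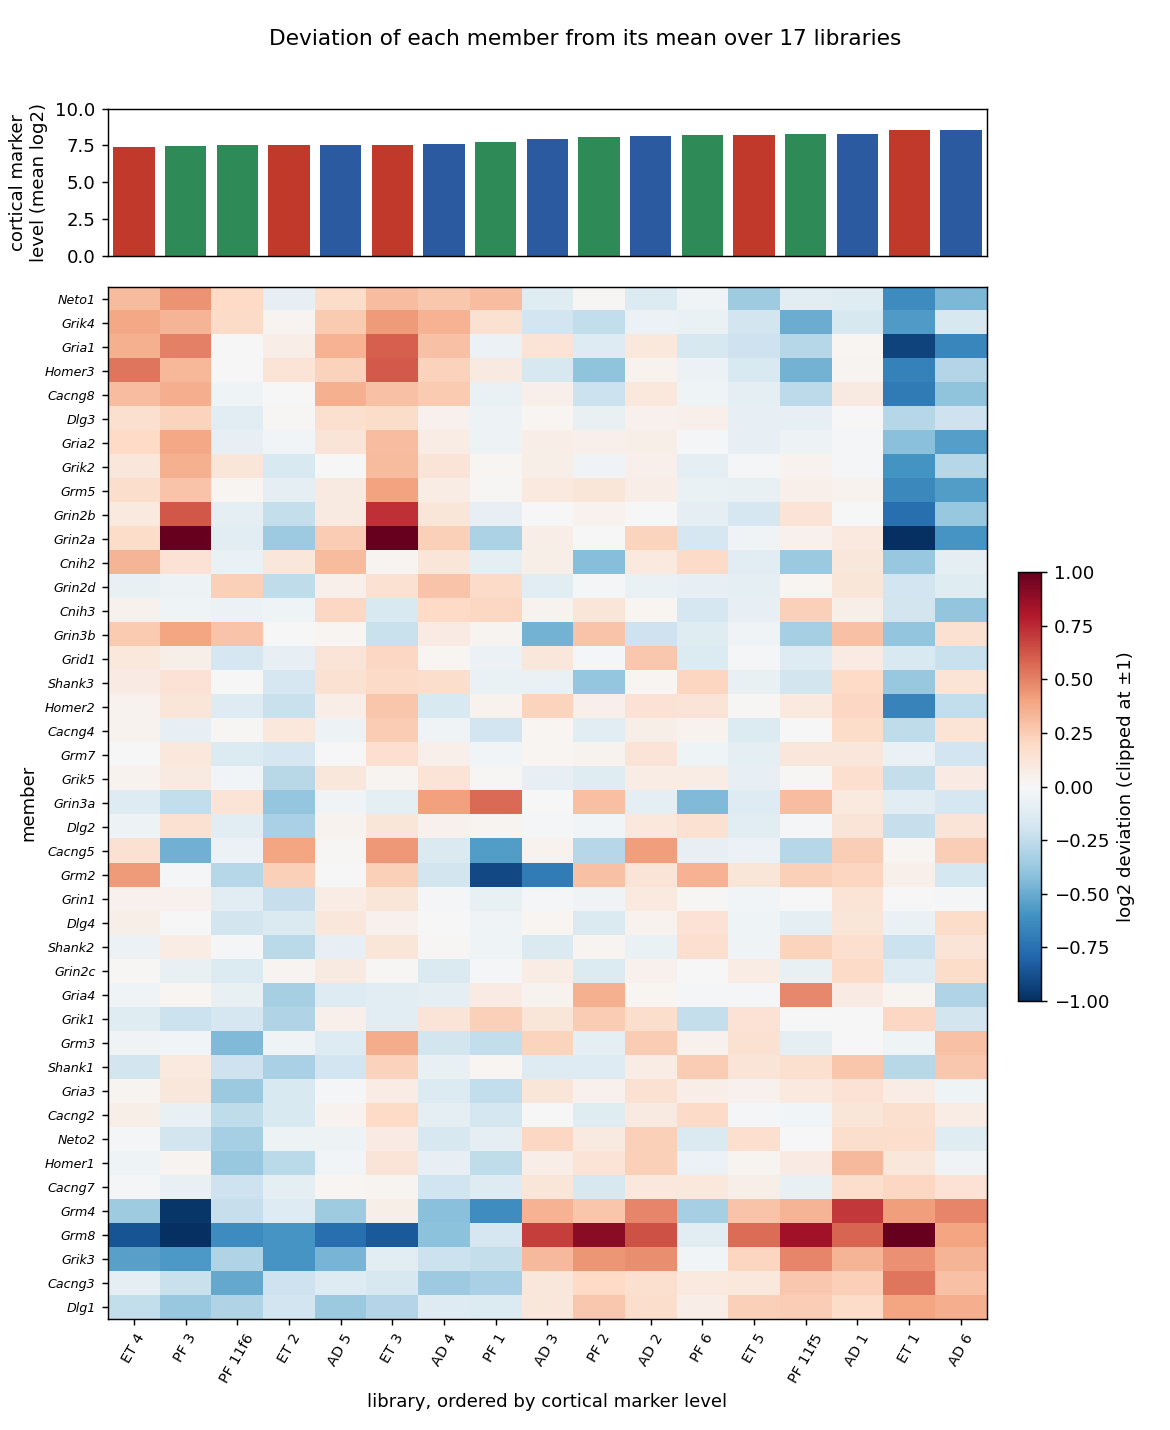
Deviation of log2(normalized count + 1) from each member's mean over 17 libraries (colour, clipped at 1 unit either way), with members ordered by their correlation with the cortical marker level and libraries by that level (bars, coloured red for ET, green for PF and blue for AD). ET replicate 3 and PF replicate 3 are high and ET replicate 1 is low for Grin2a, Grin2b and Gria1, and each diet is found at both ends of the order.

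The partners of these receptors were described by lists chosen together with the members. Of 24 genes for receptor trafficking and postsynaptic partners, 0 passed in edgeR in any of the 3 comparisons. Of 14 genes for the synthesis, release and clearance of glutamate and its co-agonist, Srr was called, which encodes serine racemase, the enzyme that makes the NMDA receptor co-agonist D-serine. Srr was at 676 to 763 in PF, 524 to 603 in ET and 533 to 572 in AD, so the PF libraries lay above all others. The log2 fold change of Srr was -0.33 between ET and PF (SE 0.062, edgeR adjusted p = 0.011) and 0.36 between PF and AD (SE 0.047, adjusted p = 0.00029), with 0.03 between ET and AD. No other gene of either list passed.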

How the data were processed

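The authors cleaned the reads with fastp, aligned them by Bowtie2 2.4.2 on mRatBN7.2 and counted fragments on exons with featureCounts 2.0.1 at a minimum mapping quality of 10. The strand setting and annotation release are not given in the sources used here. The deposited values are means of whole counts over 3 technical replicates, made by the authors, so they need not be whole. They were treated like expected counts, though the authors estimated none, and rounded to whole numbers. Of the members, 25 overlap another counted gene in GRCr8; Cacng5 and Grin2c overlap none.

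Differences between diets were tested in edgeR 4.0.16 by its quasi-likelihood test (filterByExpr, TMM scaling, Benjamini-Hochberg adjustment over all genes tested) in R 4.3.3. On simulated data the test missed its first pass mark for genes changed by 1 log2 unit, some of which were not called. The mark was then lowered and the test kept, so a count of 0 called does not exclude changes of that size. Alternatives were DESeq2 1.42.0, other scaling, filters, samples and covariates, the replicate number as a block and leaving out each library. The 3 libraries left out are those the study named. PF 11f5 and 11f6 keep animal names, since the labels do not tie them to replicate numbers. Marker correlations used 100000 permutations. The members and all lists were chosen with earlier results of these data known. Named with statistics were members at an adjusted p below 0.05, the 3 smallest p in each comparison and the highest mean of each role. Others named in the text, such as Grin2a, Grm4, Grm8 and the members named with marker lists, were chosen after their values were seen, as were the promoters printed. No pair of libraries of 1 diet agreed within sampling noise, with a smallest chi-square per gene of 8.64 over 40 pairs. The result of 1 marker gene of another cell type, and the summed level of its list, are not reported here.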

Additional observations from a re-analysis of the deposited data

Results flagged for a closer look

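Single libraries stood far from the rest of their diet in 15 of 144 groups checked, judged by the gap to the next library relative to the group's range. For independent groups chance would give about 1 in 20, but these groups share genes and libraries, so an excess over chance was not tested. PF replicate 3 was highest for Gria1 (8360), Gria2 (14727), Grin2a (2208), Grin2b (12380) and Cacng8 (1524), in normalized counts, with the next PF library at 5870, 11650, 1066, 8870 and 1147. AD replicate 6 was lowest for Gria2 (7686), Grin2a (689), Grin2b (6188), Grm5 (2474) and Cnih3 (305). ET replicate 2, a library left out of the tests, was lowest for Gria3 (3245) and Grin3a (363). The ratio of Grin2b to Grin2a was highest in ET replicate 1 (17.8) and AD replicate 6 (8.98) and lowest in PF replicate 3 (5.61). The genes flagged in a library are not independent of each other, and no cause was tested.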

How the results depend on the processing

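No member changed direction while called, and none passed the threshold of the study in any alternative. Between ET and PF, the number of members with an adjusted p below 0.05 went from 0 to 1 with DESeq2, all 17 libraries and 1 fit of the 3 diets (Cacng5 each time), and to 2 with the cortical marker level as a covariate (Cacng5 and Neto1, log2 fold change -0.23), an alternative chosen after seeing the data. Leaving out each library gave 0 to 1. Between PF and AD it went from 2 to 3 with DESeq2 (Cacng7 added, -0.18, adjusted p = 0.048) and to 1 without the filter on low counts, with all 17 libraries, with sex as a covariate (labels as given), with left hippocampi only and with the cortical covariate, Grin2c being lost each time. Leaving out each library gave 1 to 3. The causes were not tested. With the replicate number as a block, 1 member was called between ET and PF (Grm4, log2 fold change 1.04 in place of 0.31, in a fit without PF 11f5 that rests on 2 pairs) and 3 between PF and AD (Cacng5, Grm3 and Neto1). The numbers were not taken to pair the libraries. Between ET and PF, the same-numbered libraries correlated by 0.29 on average over 2 pairs (one near 0 and the other 0.59), too few to decide, against -0.05 for different numbers, and 2 of 4 libraries correlated best with their own number. The averages were -0.05 between ET and AD and -0.03 between PF and AD, with 1 of 6 and 0 of 8. The block gave 359 genes in place of 664 between ET and PF at an adjusted p below 0.05, and 197 in place of 349 at the study's threshold. Between ET and AD the 2 genes became 11 with DESeq2, 6 with all libraries, 5 in 1 fit of the diets, 8 with the cortical covariate and 0 at the study's threshold with the block. Between PF and AD, 327 became 493 without the filter. The ratio of Grm5 to Grm3 between ET and PF was -0.35 with all libraries (exact permutation p = 0.041). Leaving out libraries gave -0.43 to -0.16 for it, 0.18 to 0.45 for the same ratio between PF and AD, and -0.19 to -0.10 for Gria1 to Gria2 between PF and AD.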

Other observations

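Of the members, Grin2a had the largest ratio of its highest to its lowest library (9.80), and genes outside the list shared its pattern. Among the 11262 genes with a mean of at least 100, those most like it over the 17 libraries were Mrtfb (r = 0.99), Kcnq3 (0.99), Setd7 (0.98) and Vcpip1 (0.98). Mrtfb, a transcriptional coactivator, was at 576 in ET replicate 1 and at 2071 in ET replicate 3, the lowest and the highest of all libraries. Kcnq3, a potassium channel subunit, was at 523 and 2365 in the same libraries. Of the members, Grin2b (r = 0.97), Grik2 (0.95) and Grm5 (0.90) were the most like Grin2a. Slc1a2, the glutamate transporter of astrocytes, was at 1530 to 8632 in ET, 4287 to 7597 in PF and 4367 to 5161 in AD, while the summed level of 8 astrocyte markers was 54761 to 64745 in ET, 52299 to 62783 in PF and 51745 to 62030 in AD. The genes were named after their values were seen, and the correlations are descriptions over libraries that share depth and scaling.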
